A study of Mus musculus with 2 samples.

Results

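The genes described here encode respiratory complexes II to V of the mitochondrial inner membrane, with cytochrome c and the factors that build or regulate these complexes. Members were taken by symbol, which gave 72 of the 23282 rows in each deposited table: 8 for complex II, 13 for complex III, 1 for cytochrome c, 30 for complex IV, 19 for complex V, and Atp5sl. Atp5sl carries an ATP synthase name, but its product is known as an assembly factor of complex I, so it is counted outside the complexes. RNA came from 3T3-L1 cells, which the labels call adipocytes. This established mouse line grows as fibroblast-like preadipocytes and can be differentiated into fat cells. One culture was given an siRNA against Pink1 and the other a control siRNA, with 1 library each and no further agent or genotype in the labels. The Pink1 protein is a kinase of the outer mitochondrial membrane that starts the clearance of depolarised mitochondria with parkin.

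Complex II, or succinate dehydrogenase, passes electrons from succinate to ubiquinone, and complex III passes them on to cytochrome c. Complex IV, cytochrome c oxidase, gives them to oxygen, and complex V, the ATP synthase, uses the proton gradient built by complexes I, III and IV to make ATP. Complex II is encoded wholly in the nucleus, while complexes III, IV and V also hold subunits encoded by mitochondrial DNA. Genes of the 6 mitochondrially encoded subunits of complexes III, IV and V were looked for by symbol, and 0 were in the deposited tables. In adipocytes the chain is known to grow as the cells differentiate and to be largest in thermogenic fat.

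The Pink1 siRNA library held 14214768 counts and the control siRNA library 13803174. Levels are counts per 1000000 (CPM) over effective library sizes. The library kit reads the 3′ end of each transcript, so CPM was not divided by transcript length, and a level is one of 3′ tags. Pink1 itself was at 25.1 CPM in the Pink1 siRNA library and 36.5 CPM in the control siRNA library (351 counts under Pink1 siRNA and 511 under control siRNA), a ratio of 0.687 (95% counting interval 0.598 to 0.788). A second, widened interval ran from 0.445 to 1.05. It takes in how far the 2 libraries differ at rows of the same twentieth of measured rows by level. The highest twentieth runs from 260 to 102959 CPM, so widened intervals of members above 260 CPM are wide for their counts. The label was set beside marker lists. All 8 adipocyte markers were measured and summed to 2728 CPM in the Pink1 siRNA library and 2539 CPM in the control siRNA library, while 6 preadipocyte and fibroblast markers summed to 31400 CPM under Pink1 siRNA and 30009 under control siRNA. Single adipocyte markers lay on both sides, 4 above a ratio of 1 and 4 below, from Plin1, a lipid droplet protein, at 0.607 (167 counts under Pink1 siRNA and 275 under control siRNA, counting interval 0.498 to 0.739, widened 0.343 to 1.05) to Cidec, another one, at 1.25. Of the fibroblast markers 5 of 6 had a ratio above 1. The preadipocyte marker Dlk1 had 9329 CPM under Pink1 siRNA and 8326 under control siRNA. The adipocyte marker Fabp4 had 1196 CPM under Pink1 siRNA and 1047 under control siRNA. How far the cultures had differentiated was not tested. Summed CPM of the lists for other cells was low. Under Pink1 siRNA it was 8.07 for thermogenic adipocytes, 1.86 for skeletal muscle, 2.43 for macrophages, 0.4998 for endothelium, 0 for osteoblasts and 3.21 for germ cells. Under control siRNA it was 11.5 for thermogenic adipocytes, 2.50 for skeletal muscle, 3.57 for macrophages, 0.571 for endothelium, 0.357 for osteoblasts and 1.78 for germ cells. Of the genes on these lists Dio2, Myog, Adgre1, Cdh5, Kdr, Bglap, Sp7, Dazl, Prm1 and Cox8c had 0 counts in both libraries. Others had a few reads. Ucp1 had 4 counts under Pink1 siRNA and 0 under control siRNA, and Pecam1 7 under Pink1 siRNA and 8 under control siRNA. Myh1 had 4 under Pink1 siRNA and 16 under control siRNA. Acta1 had 7 under Pink1 siRNA and 15 under control siRNA, and Ptprc 0 under Pink1 siRNA and 5 under control siRNA. Of these lists 3 genes were measured: the germ cell marker Ddx4 with 39 counts under Pink1 siRNA and 13 under control siRNA (ratio 3.00, counting interval 1.57 to 6.13, widened 0.607 to 24.5), Ppargc1a, a coactivator of mitochondrial genes, with 102 counts under Pink1 siRNA and 148 under control siRNA (ratio 0.689, counting interval 0.530 to 0.893, widened 0.333 to 1.39), and the macrophage marker Cd68 with 23 counts under Pink1 siRNA and 20 under control siRNA. The macrophage marker Csf1r had 11 counts under Pink1 siRNA and 25 under control siRNA. The part of any of these in the members' ratios was not tested. With whole cultures, fewer cells of a type and less RNA per cell cannot be told apart.

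With 1 library per group no difference had a replicate check and no test was made. A gene was called higher or lower by a rule of size, a ratio of at least 2 either way with a 95% counting interval that left out 1, among rows with at least 40 counts in both libraries together. Of the 72 members 64 reached 40 counts. None of them was 2-fold higher, where 1.69% of all 11660 measured rows were, and none was 2-fold lower, where 2.39% were. At 1.5-fold, 2 members were higher, Sdhd and Cox20, which is 3.12% of the measured members against 5.48% of all measured rows, and 0 were lower, against 6.64%. These shares depend on level. Among members averaging at least 100 CPM, 1 of 33 was higher, against 1.05% of all rows of that level, and 0 were lower, against 0.105%. Under 100 CPM, 1 of 31 was higher, against 6.35%, and 0 were lower, against 7.92%. The counting interval lay above 1 for 25 members (39.1%, against 26.2% of all rows) and below 1 for 13 (20.3%, against 24.9%). A counting interval narrows as counts rise and the members are abundant, so these shares of all rows are not matched to their level. The widened interval lay above 1 for Sdhd and Cox20 (3.12%, against 2.09%) and below 1 for Sdhaf4 alone (1.56%, against 2.01%). At 100 CPM or more it lay above 1 for 1 of 33 members, against 3.55% of all rows of that level, and below 1 for 0, against 0.993%.

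As a whole the complexes had ratios close to 1. The 63 measured genes of complexes II to V and cytochrome c had a median log2 ratio (Pink1 siRNA over control siRNA) of 0.05, beside 0.005 over all measured rows and 0.044 over the 1913 rows that averaged at least 100 CPM. Of all 64 measured members, 35 had a ratio above 1 (54.7%, against 51.1% of all rows). At 100 CPM or more it was 20 of 33 members, against 58.7% of all rows of that level. In all, 44 members lay within 1.2-fold of equal levels (68.8%, against 58.5%). The members are abundant, with 33 of 64 averaging at least 100 CPM, and such rows lay within 1.2-fold more often (79.2%) than rows under 100 CPM (54.4%). Together the 71 genes summed to 9533 CPM in the Pink1 siRNA library and 9216 CPM in the control siRNA library. The ratio was 1.03, with an interval for counting error alone of 1.03 to 1.04. As shares of all counts they made up 0.939% of the Pink1 siRNA library and 0.935% of the control siRNA library, so that distance from 1 depends on the scaling.

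**Figure D1:**
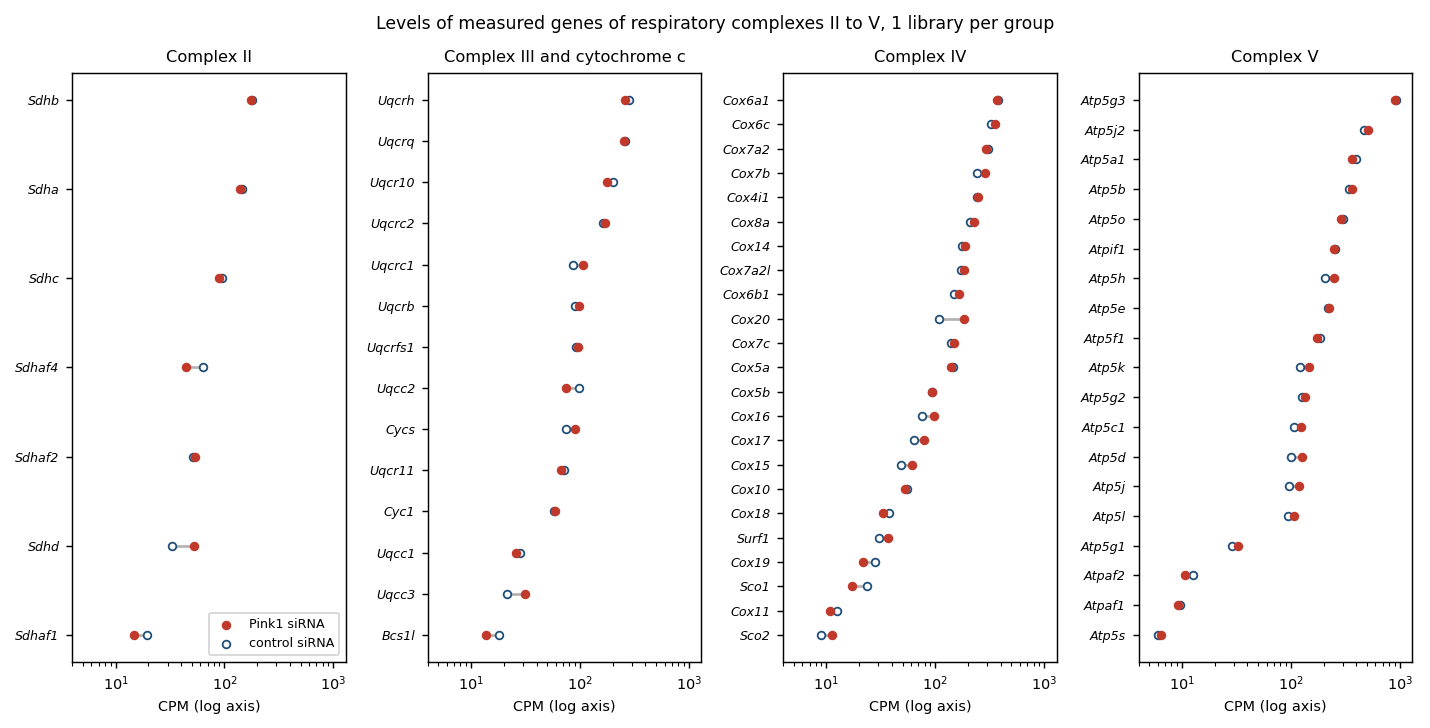
Levels of the measured members in each library, in CPM on a log axis, 1 panel per complex with cytochrome c beside complex III. Filled points are the Pink1 siRNA library and open points the control siRNA library, with a line joining the pair. Most pairs nearly coincide, and the widest gaps are those of Cox20, Sdhd, Sdhaf4 and Uqcc3.

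By value the complexes lay on different sides of 1, by small amounts. The median log2 ratio was -0.05 for 7 measured genes of complex II, -0.04 for 13 of complex III, 0.08 for 23 of complex IV and 0.10 for 19 of complex V. The median of all measured rows was 0.005, that of rows averaging at least 100 CPM 0.044, and that of the highest twentieth of level 0.088. The summed level had a ratio of 0.968 for complex II (counting interval 0.938 to 0.998), 0.973 for complex III (0.954 to 0.992), 1.07 for complex IV (1.06 to 1.09) and 1.03 for complex V (1.02 to 1.04). These intervals take in counting error alone, and no widened interval was made for the sums. With total counts in place of trimmed mean scaling, the medians were -0.09 for complex II, -0.09 for complex III, 0.04 for complex IV and 0.06 for complex V. Without members that overlap another gene the median of complex IV was 0.03, and for subunit genes alone that of complex III was 0.02, on the other side of 0. With total counts the ratio of summed levels of complex V was 1.0027, so its distance from 1 rests on the scaling. For subunit genes alone the ratio of sums of complex II was 1.01, on the other side of 1.

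Complex II held both a member well above 1 and one well below it. Its catalytic head is the flavoprotein Sdha, which oxidises succinate, and the iron-sulphur protein Sdhb. Sdha had 140 CPM in the Pink1 siRNA library and 144 CPM in the control siRNA library, and Sdhb, the most abundant member of the complex, 174 CPM under Pink1 siRNA and 179 under control siRNA. Both counting intervals included a ratio of 1. The membrane anchor is made of Sdhc and Sdhd, which bind ubiquinone between them. Sdhc had 88.5 CPM in the Pink1 siRNA library and 94.2 CPM in the control siRNA library. Sdhd had 52.7 CPM in the Pink1 siRNA library and 33.3 CPM in the control siRNA library (738 counts under Pink1 siRNA and 466 under control siRNA). The ratio of 1.58 had a counting interval of 1.41 to 1.78 and a widened interval of 1.09 to 2.32, and 4 of the 583 rows of its level, itself included, had a ratio as high. The subunits of one complex thus had unequal ratios in these libraries, with Sdha, Sdhb and Sdhc between 0.939 and 0.972 and Sdhd at 1.58.

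The assembly factors of complex II were mostly lower in the Pink1 siRNA library by value. Sdhaf4, which helps flavinated Sdha to join Sdhb, had 44.3 CPM in the Pink1 siRNA library and 63.7 CPM in the control siRNA library (621 counts under Pink1 siRNA and 893 under control siRNA). The ratio of 0.695 had a counting interval of 0.627 to 0.771 and a widened interval of 0.490 to 0.980, and 13 of 583 rows of its level had a ratio as low. Sdhaf1, an LYR-motif protein needed for the iron-sulphur clusters of Sdhb, had 206 counts in the Pink1 siRNA library and 273 in the control siRNA library, a ratio of 0.755 with a widened interval of 0.444 to 1.27. Sdhaf2, which is needed to attach the flavin to Sdha, had 748 counts under Pink1 siRNA and 722 under control siRNA, and its gene overlaps Cpsf7 (739 counts under Pink1 siRNA and 732 under control siRNA). Sdhaf3 had 1 count in the Pink1 siRNA library and 9 in the control siRNA library and was not measured. Its ratio of 0.111 had a counting interval of 0.00254 to 0.802.

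The 3 genes whose widened intervals left out 1, Sdhd, Cox20 and Sdhaf4, are shown with the 300 bases around their transcription starts, 250 before and 50 after, from RefSeq (GRCm38.p6, the assembly behind mm10). Cox6a1 is added as a subunit near a ratio of 1 whose window holds a match to 2 of the motifs searched. Capitals mark matches on either strand to CCGGAAG, letters bound by ETS factors such as GABP (NRF2), and to the NRF1 palindrome, GCGCA followed by TGCGC. Both factors are known regulators of respiratory genes.
Sdhd, chr9:50603800-50604099, minus strand: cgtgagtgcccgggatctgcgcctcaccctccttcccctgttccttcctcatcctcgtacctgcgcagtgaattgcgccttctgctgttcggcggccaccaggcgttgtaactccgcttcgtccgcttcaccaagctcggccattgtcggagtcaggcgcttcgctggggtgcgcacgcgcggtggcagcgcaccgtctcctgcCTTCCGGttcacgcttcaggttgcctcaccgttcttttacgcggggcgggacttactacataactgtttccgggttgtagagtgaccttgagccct
Cox20, chr1:178318903-178319202, plus strand: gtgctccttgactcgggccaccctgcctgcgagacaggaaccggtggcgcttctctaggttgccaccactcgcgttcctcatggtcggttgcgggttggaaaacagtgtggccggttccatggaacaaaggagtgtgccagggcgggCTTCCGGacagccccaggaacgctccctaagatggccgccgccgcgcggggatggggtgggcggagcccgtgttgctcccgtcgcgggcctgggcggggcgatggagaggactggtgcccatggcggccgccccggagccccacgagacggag
Sdhaf4, chr1:24005591-24005890, minus strand: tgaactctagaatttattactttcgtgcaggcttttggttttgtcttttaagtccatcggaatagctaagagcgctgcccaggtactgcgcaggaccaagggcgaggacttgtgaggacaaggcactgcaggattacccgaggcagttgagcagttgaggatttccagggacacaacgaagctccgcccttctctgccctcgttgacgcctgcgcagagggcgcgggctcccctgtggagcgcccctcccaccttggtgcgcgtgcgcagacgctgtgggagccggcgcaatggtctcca
Cox6a1, chr5:115348909-115349208, minus strand: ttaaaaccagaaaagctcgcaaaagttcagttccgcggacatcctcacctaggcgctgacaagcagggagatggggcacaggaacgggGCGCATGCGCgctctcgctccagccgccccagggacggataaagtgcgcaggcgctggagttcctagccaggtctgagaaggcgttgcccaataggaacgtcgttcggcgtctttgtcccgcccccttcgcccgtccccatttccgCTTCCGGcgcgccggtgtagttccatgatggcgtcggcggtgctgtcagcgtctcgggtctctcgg
Sdhd and Cox20 each hold the ETS letters once, Cox6a1 holds the ETS and NRF1 letters, and the Sdhaf4 window holds neither. A match is a description of the letters, not a measured binding site.

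Such letters were common around the starts of members. Of the 72 members 56 had a window, 51 of them measured. The ETS letters were in 21 of the 51 (41.2%), beside 19.3% of the windows of 8854 measured genes and 9.12% of all 27025 windows, with 1 window per gene. The NRF1 letters were in 4 of the 51 (7.84%, beside 2.22% of measured genes), those of Cox6a1, Atp5k, Uqcrc1 and Atp5g2. The YY1 letters, AAN followed by ATGGC and GNC, were in 5 (9.80%, beside 3.93%), and no matches to different motifs overlapped. Members with the ETS letters had a median log2 ratio of 0.08 (13 of 21 with a ratio above 1) and those without 0.02 (15 of 30). A ratio above 1 was seen for 51.1% of all measured rows.

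Sdhd starts 98 bases from Timm8b, a chaperone of the mitochondrial intermembrane space transcribed the other way. Timm8b had 1858 counts in the Pink1 siRNA library and 1630 in the control siRNA library, a ratio of 1.14 (widened interval 0.833 to 1.56), so the neighbour's ratio was nearer to 1. The gene bodies do not overlap in GENCODE M21, where Sdhd lies at chr9:50596357-50603812. Among 13 pairs of a member and a measured protein-coding gene read away from each other, with starts up to 1000 bases apart or overlapping by up to 200, 6 pairs had log2 ratios of the same sign. In 5 further pairs the 5′ parts overlapped by more than 200 and up to 1000 bases, and 3 of these had the same sign. Of the 13, the pairs furthest apart in ratio were Sco1 (log2 -0.47) with Adprm (0.85, from 188 counts under Pink1 siRNA and 104 under control siRNA) and Atp5a1 (-0.13) with Haus1 (0.83, from 242 counts under Pink1 siRNA and 136 under control siRNA).

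Complex III subunits lay near 1, and its assembly factors were spread wider. The catalytic subunits are the Rieske iron-sulphur protein Uqcrfs1 and cytochrome c1, Cyc1. Uqcrfs1 had 96.3 CPM in the Pink1 siRNA library and 92.5 CPM in the control siRNA library, and Cyc1 58.6 CPM under Pink1 siRNA and 57.6 under control siRNA, and both counting intervals included 1. The core protein Uqcrc1 had the highest ratio among the subunits, with 107 CPM in the Pink1 siRNA library and 86.9 CPM in the control siRNA library (1497 counts under Pink1 siRNA and 1217 under control siRNA, ratio 1.23, widened interval 0.915 to 1.66). Its partner Uqcrc2 had a ratio of 1.04, although its gene overlaps Pdzd9 at the 3′ end (271 counts under Pink1 siRNA and 181 under control siRNA). The small subunits Uqcrh, Uqcrq and Uqcr10 were the most abundant of the complex. The hinge protein Uqcrh had 258 CPM in the Pink1 siRNA library and 282 CPM in the control siRNA library, and Uqcrq 253 CPM under Pink1 siRNA and 261 under control siRNA. Uqcr10 had 179 CPM in the Pink1 siRNA library and 203 CPM in the control siRNA library, the lowest ratio among the subunits (0.883, widened interval 0.642 to 1.21). Uqcr11 had 67.4 CPM in the Pink1 siRNA library and 71.0 CPM in the control siRNA library, and Uqcrb 1388 counts under Pink1 siRNA and 1274 under control siRNA.

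The assembly factors Uqcc1, Uqcc2 and Uqcc3 act on the mitochondrially encoded cytochrome b, and their ratios lay on both sides of 1. Uqcc3 had 31.4 CPM in the Pink1 siRNA library and 21.4 CPM in the control siRNA library (440 counts under Pink1 siRNA and 300 under control siRNA), a ratio of 1.47 (counting interval 1.26 to 1.70, widened 0.955 to 2.27). Uqcc2 had 75.3 CPM in the Pink1 siRNA library and 98.7 CPM in the control siRNA library (1055 counts under Pink1 siRNA and 1383 under control siRNA), a ratio of 0.763 (counting interval 0.703 to 0.827, widened 0.555 to 1.04), and 12 of 583 rows of its level were as low. Uqcc1 had 360 counts in the Pink1 siRNA library and 395 in the control siRNA library, with a counting interval of the ratio that included 1. The partners of this pathway thus differed in ratio by more than counting error, and both widened intervals of Uqcc2 and Uqcc3 still included 1. Bcs1l, the ATPase that inserts the Rieske protein, had 13.6 CPM in the Pink1 siRNA library and 18.2 CPM in the control siRNA library (191 counts under Pink1 siRNA and 255 under control siRNA, ratio 0.749, widened interval 0.431 to 1.29). Cytochrome c, Cycs, which carries electrons from complex III to complex IV, had 90.3 CPM in the Pink1 siRNA library and 74.4 CPM in the control siRNA library (1265 counts under Pink1 siRNA and 1042 under control siRNA). The ratio of 1.21 had a counting interval of 1.12 to 1.32 and a widened interval of 0.891 to 1.66.

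**Figure D2:**
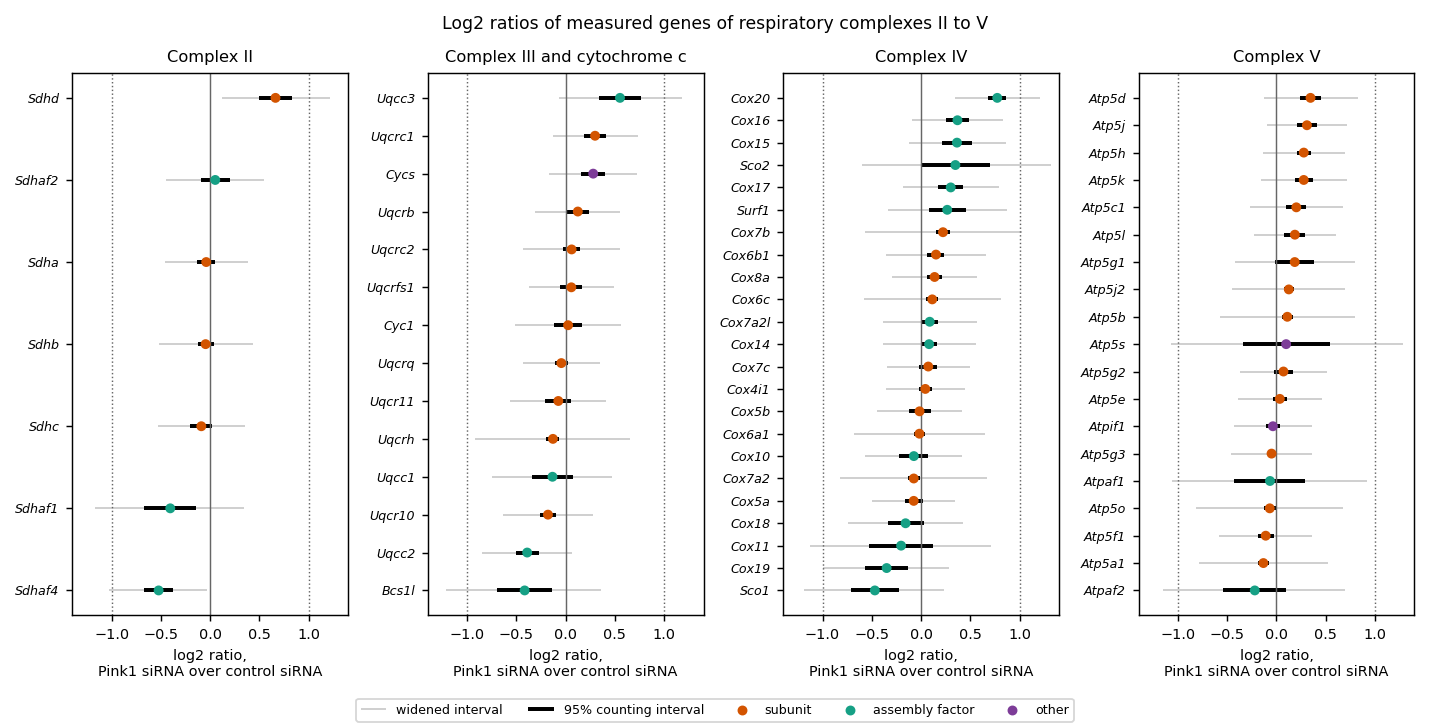
Log2 ratio of each measured member, Pink1 siRNA over control siRNA, by complex, with subunits, assembly factors and other members coloured. Black bars are 95% counting intervals, grey bars the widened intervals described above, and dotted lines mark 2-fold. No member reaches 2-fold, and the grey bars of Sdhd, Cox20 and Sdhaf4 leave out 0.

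The constitutive nuclear subunits of complex IV lay close to 1. All 10 among the members lay within 1.2-fold, with log2 ratios from -0.07 to 0.22 and a median of 0.06. Cox6a1 was the most abundant, with 372 CPM in the Pink1 siRNA library and 376 CPM in the control siRNA library, followed by Cox6c with 353 CPM under Pink1 siRNA and 326 under control siRNA. Cox7b had the highest ratio, with 284 CPM in the Pink1 siRNA library and 244 CPM in the control siRNA library (1.17, counting interval 1.11 to 1.22, widened 0.673 to 2.04). Cox4i1, whose product is a site of regulation by ATP, had 248 CPM in the Pink1 siRNA library and 240 CPM in the control siRNA library. Cox5a (1941 counts in the Pink1 siRNA library and 2044 in the control siRNA library) and Cox7a2 (4062 counts under Pink1 siRNA and 4276 under control siRNA) had the lowest log2 ratios, both -0.07. The zinc-binding Cox6b1 (2308 counts under Pink1 siRNA and 2078 under control siRNA) and the small membrane subunit Cox8a (3200 counts under Pink1 siRNA and 2910 under control siRNA) had log2 ratios of 0.15 and 0.14, and the other zinc-binding subunit, Cox5b (1305 counts under Pink1 siRNA and 1319 under control siRNA), -0.02. The gene of Cox6c overlaps Vps13b at its 3′ end (730 counts under Pink1 siRNA and 895 under control siRNA), and that of Cox4i1 overlaps Emc8 (564 counts under Pink1 siRNA and 509 under control siRNA).

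The count of Cox7c may be incomplete by itself. It had 147 CPM in the Pink1 siRNA library and 140 CPM in the control siRNA library. Of the GENCODE M21 transcripts that match the last 300 bases of a Cox7c transcript at 95% identity or more over at least 100 bases, those of the processed pseudogenes Gm12338 and Gm10012 have rows of their own in the tables. Gm12338 had 189 CPM in the Pink1 siRNA library and 163 CPM in the control siRNA library, and Gm10012, which RefSeq names Cox7c-ps1, 132 CPM under Pink1 siRNA and 125 under control siRNA. Reads of Cox7c may thus be split over 3 rows, which summed to 469 CPM in the Pink1 siRNA library and 427 CPM in the control siRNA library, a ratio of 1.10 (counting interval 1.06 to 1.14). That sum is above the level of Cox6a1 in both libraries. In all, 15 of the 72 members had such a near-identical copy, with 12 for Atp5l, and Cox7c alone had copies with rows in the tables.

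The tissue-restricted isoforms of complex IV had almost no reads. Cox4i2, known from lung, and Cox8c, from testis, had 0 counts in both libraries, which allows up to 0.214 CPM in each. The heart and muscle isoform Cox6a2 had 12 counts in the Pink1 siRNA library and 4 in the control siRNA library, and the muscle and brown fat isoform Cox7a1 had 5 under Pink1 siRNA and 8 under control siRNA. The testis isoforms Cox6b2 and Cox7b2 had 6 and 0 counts in the Pink1 siRNA library and 10 and 2 in the control siRNA library. Cox8b, another brown fat and muscle isoform, had 1 count in the Pink1 siRNA library and 0 in the control siRNA library. Cox6a1 held 99.8% of the Cox6a counts in the Pink1 siRNA library and 99.9% in the control siRNA library (exact intervals 99.6 to 99.9 under Pink1 siRNA and 99.8 to 100 under control siRNA), and Cox7a2 held 99.9% under Pink1 siRNA and 99.8% under control siRNA of those of Cox7a1 and Cox7a2.

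**Figure D3:**
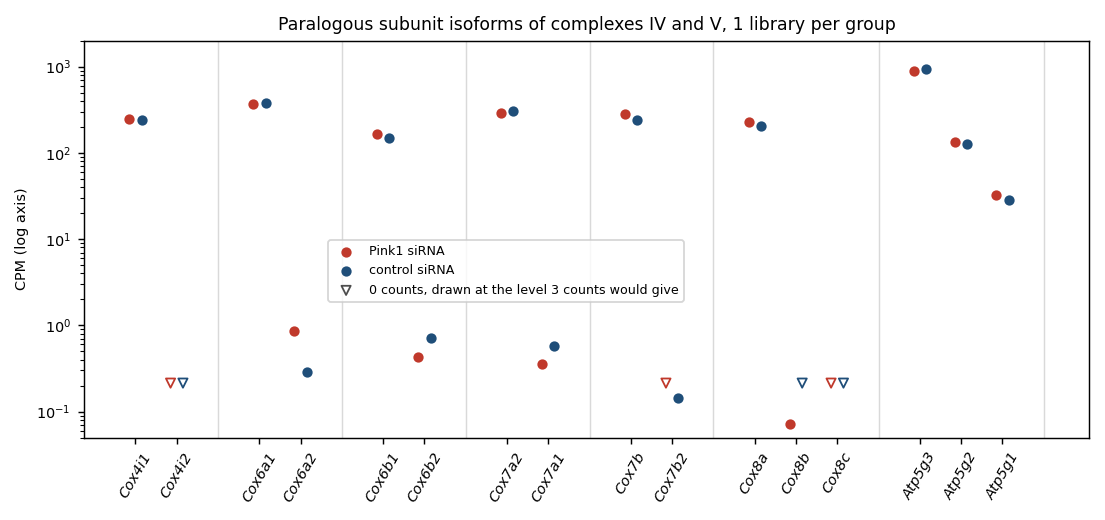
CPM of paralogous subunit isoforms of complexes IV and V in the Pink1 siRNA library (left point of each pair) and the control siRNA library, on a log axis. Triangles stand for 0 counts, drawn at the 0.214 CPM that 3 counts would give. In complex IV 1 isoform of each set holds nearly all reads in both libraries, while all 3 Atp5g genes are expressed.

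Complex IV assembly factors covered a wider range than its subunits, from log2 -0.47 to 0.77. Cox20, a chaperone of the mitochondrially encoded subunit Cox2, had 185 CPM in the Pink1 siRNA library and 108 CPM in the control siRNA library (2590 counts under Pink1 siRNA and 1515 under control siRNA). The ratio of 1.71 had a counting interval of 1.60 to 1.82 and a widened interval of 1.27 to 2.31, and 3 of 583 rows of its level were as high, itself included. Cox20 lies at chr1:178319130-178322693 (GRCm38), where its last 1586 bases, including the 3′ end, overlap Hnrnpu on the opposite strand. Hnrnpu had 6620 counts in the Pink1 siRNA library and 6884 in the control siRNA library, and whether strand was used in counting is not given in the sources used here, so the Cox20 count is uncertain. Without Cox20 and the other overlapping members, the summed ratio of complex IV was 1.04 in place of 1.07.

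Of the other factors that mature the core subunits, 3 had ratios above 1. Cox16, which works with Cox20 in the biogenesis of Cox2, had 96.7 CPM in the Pink1 siRNA library and 74.8 CPM in the control siRNA library (1354 counts under Pink1 siRNA and 1048 under control siRNA, ratio 1.29, widened interval 0.942 to 1.78). Surf1, whose human gene is mutated in Leigh syndrome, had 517 counts in the Pink1 siRNA library and 430 in the control siRNA library (log2 ratio 0.27, widened interval of the ratio 0.794 to 1.83), and it overlaps Surf2 (1997 counts under Pink1 siRNA and 1735 under control siRNA). Cox14, which binds newly made Cox1, had 187 CPM in the Pink1 siRNA library and 176 CPM in the control siRNA library. Cox18, which inserts the tail of Cox2 into the membrane, had 468 counts under Pink1 siRNA and 522 under control siRNA, a ratio of 0.897. In this group 4 of 5 ratios were above 1, where 51.1% of all measured rows had one, and Cox20 and Surf1 among the 4 overlap other genes. The median was 0.27 on the log2 scale, and the widened interval left out 1 for Cox20 alone.

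Copper delivery factors had ratios on both sides of 1. The metallochaperone Cox17 had 78.0 CPM in the Pink1 siRNA library and 63.3 CPM in the control siRNA library (1093 counts under Pink1 siRNA and 887 under control siRNA, ratio 1.23, widened interval 0.882 to 1.73). Sco1 and Sco2 pass copper on to Cox2. Sco1 had 239 counts in the Pink1 siRNA library and 331 in the control siRNA library (ratio 0.722, counting interval 0.609 to 0.855, widened 0.437 to 1.18). Sco2 had 158 counts under Pink1 siRNA and 124 under control siRNA (ratio 1.27, counting interval 1.001 to 1.63, widened 0.662 to 2.49). Its gene overlaps Ncaph2 on the opposite strand at the 3′ end (1064 counts under Pink1 siRNA and 1047 under control siRNA), so the Sco2 count is uncertain as well. Cox19 had 306 counts in the Pink1 siRNA library and 390 in the control siRNA library (ratio 0.785, widened interval 0.502 to 1.22). Its partner Cox11, which supplies copper to Cox1, had 152 under Pink1 siRNA and 175 under control siRNA. Cox11 overlaps Tom1l1 at its 3′ end (39 counts under Pink1 siRNA and 32 under control siRNA). Of the haem A enzymes, Cox15 had 864 counts in the Pink1 siRNA library and 671 in the control siRNA library (ratio 1.29, widened interval 0.918 to 1.81) and Cox10 had 730 under Pink1 siRNA and 768 under control siRNA. Cox15 overlaps Entpd7 at its 3′ end (231 counts under Pink1 siRNA and 238 under control siRNA). Cox7a2l, a subunit homologue that joins complexes III and IV into supercomplexes, had 184 CPM in the Pink1 siRNA library and 173 CPM in the control siRNA library.

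In complex V most subunits had ratios slightly above 1. Of 15 subunit genes 11 had a ratio above 1, with a median log2 ratio of 0.13 and a range from -0.13 to 0.35. Of these 15 genes 14 averaged at least 100 CPM, where 58.7% of all rows had a ratio above 1. In the F1 part, where ATP is made, the catalytic subunit Atp5b had 367 CPM in the Pink1 siRNA library and 340 CPM in the control siRNA library. Its partner Atp5a1 had 363 CPM in the Pink1 siRNA library and 398 CPM in the control siRNA library (ratio 0.912, counting interval 0.878 to 0.948, widened 0.578 to 1.44), and its gene overlaps Haus1 by 158 bases. The central stalk subunit delta, Atp5d, had the highest ratio of the complex, with 127 CPM in the Pink1 siRNA library and 99.7 CPM in the control siRNA library (1775 counts under Pink1 siRNA and 1397 under control siRNA, ratio 1.27, widened interval 0.913 to 1.77). Subunit gamma, Atp5c1, had a ratio of 1.15 and subunit epsilon, Atp5e, 1.02.

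The peripheral stalk, which holds the F1 head still while the rotor turns, divided evenly. Atp5j (subunit F6) had 118 CPM in the Pink1 siRNA library and 95.6 CPM in the control siRNA library (1659 counts under Pink1 siRNA and 1339 under control siRNA, ratio 1.24, widened interval 0.935 to 1.65), and Atp5h (subunit d) 251 CPM under Pink1 siRNA and 207 under control siRNA (ratio 1.21, widened interval 0.907 to 1.62). Atp5f1 (subunit b) had 174 CPM in the Pink1 siRNA library and 187 CPM in the control siRNA library, a ratio of 0.927 (widened interval 0.668 to 1.29). Atp5o, the subunit that links stalk and head, had 290 CPM under Pink1 siRNA and 304 under control siRNA. Atp5j overlaps Gabpa (241 counts under Pink1 siRNA and 269 under control siRNA), which encodes a subunit of GABP, and Atp5f1 overlaps Wdr77 (761 counts under Pink1 siRNA and 682 under control siRNA). The small membrane subunits, which help ATP synthases to pair, had 3 ratios above 1, at 1.21 for Atp5k (subunit e), 1.14 for Atp5l (subunit g) and 1.09 for Atp5j2 (subunit f). Atp5j2 was the second most abundant of complex V, with 513 CPM in the Pink1 siRNA library and 470 CPM in the control siRNA library.

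The proton-carrying c ring is encoded by 3 genes, Atp5g1, Atp5g2 and Atp5g3, whose precursors are known to differ in the targeting sequence and to give the same mature protein. Atp5g3 was the most abundant member of all, with 898 CPM in the Pink1 siRNA library and 930 CPM in the control siRNA library. It held 84.3% of the counts of the 3 genes in the Pink1 siRNA library and 85.6% in the control siRNA library (exact 95% counting intervals 83.7 to 84.9 under Pink1 siRNA and 85 to 86.2 under control siRNA). Atp5g2 held 12.6% under Pink1 siRNA and 11.8% under control siRNA, and Atp5g1 held 3.06% under Pink1 siRNA and 2.63% under control siRNA. The summed level of the 3 genes was 1065 CPM in the Pink1 siRNA library and 1086 CPM in the control siRNA library, a ratio of 0.980, with a counting interval of 0.958 to 1.003. Atp5g1, the isoform known to vary most with physiological state, had 456 counts in the Pink1 siRNA library and 401 in the control siRNA library (ratio 1.14, counting interval 0.992 to 1.30).

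The remaining complex V members are not subunits. Atpif1, the inhibitor that stops the enzyme from hydrolysing ATP, had 249 CPM in the Pink1 siRNA library and 255 CPM in the control siRNA library. The F1 assembly factors were weakly expressed, Atpaf1 with 128 counts under Pink1 siRNA and 134 under control siRNA and Atpaf2 with 151 counts in the Pink1 siRNA library and 176 in the control siRNA library, and Atpaf2 overlaps Gid4 (805 counts under Pink1 siRNA and 639 under control siRNA). Atp5s, factor B, had 91 counts under Pink1 siRNA and 85 under control siRNA, and Atp5sl had 182 under Pink1 siRNA and 201 under control siRNA. The counting intervals of Atpaf1, Atpaf2, Atp5s and Atp5sl, 4 in all, included 1.

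Subunits and assembly factors differed in how far their ratios spread. Of 38 measured subunit genes 32 lay within 1.2-fold (84.2%), and of 22 measured assembly factors 9 did (40.9%). Assembly factors were also less abundant, with 19 of 22 under 100 CPM against 9 of 38 subunits, and ratios scatter more at low levels. At 100 CPM or more, 25 of 29 subunits (86.2%) and 2 of 3 assembly factors lay within 1.2-fold, beside 79.2% of all rows of that level. Under 100 CPM, 7 of 9 subunits (77.8%) and 7 of 19 assembly factors (36.8%) lay within 1.2-fold, beside 54.4% of all rows under 100 CPM. The levels still differed there, with a median of 91.4 CPM for these subunits and 26.9 CPM for these assembly factors. Assembly factors lay on both sides, 10 with a ratio above 1 and 12 below. Members were also set against the interquartile range of log2 ratios of rows of the same twentieth of level. By construction, as many rows lie within that range as outside it, with equal shares above and below. Of 38 subunits 24 were within it, 10 above and 4 below. Of 22 assembly factors 9 were within it, 7 above and 6 below, which is close to the split of all rows. These are counts over genes of 2 libraries, and whether the difference in spread would recur was not tested.

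**Figure D4:**
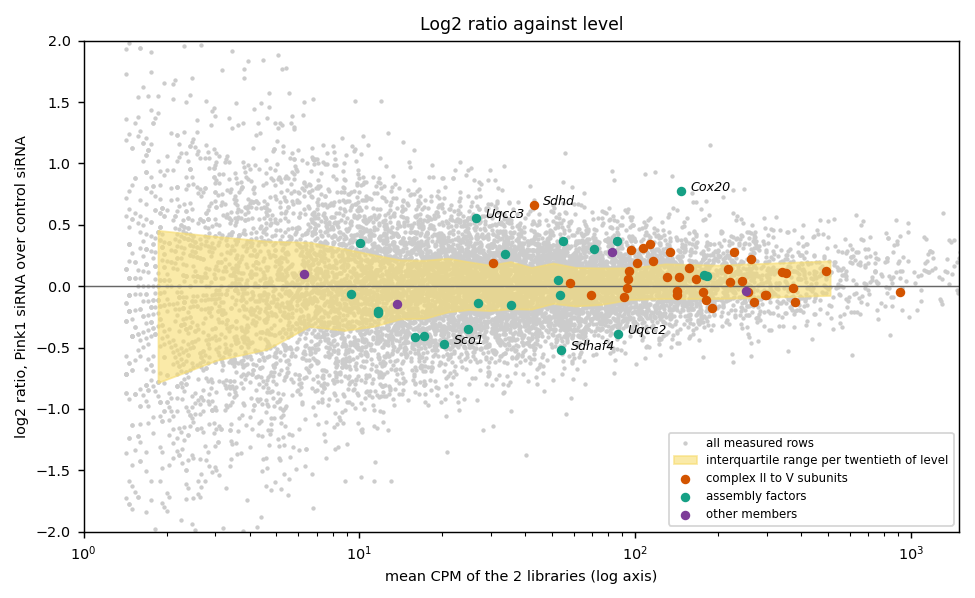
Log2 ratio, Pink1 siRNA over control siRNA, against the mean CPM of both libraries on a log axis, for all measured rows (grey) and for subunits, assembly factors and other members (coloured). The band is the interquartile range in each twentieth of level, and rows beyond the axes are not drawn. Subunits sit mostly to the right and within or near the band, and assembly factors lie further left, both within the band and on either side of it.

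Genes around these complexes had similar medians. All 45 rows with symbols starting with Nduf, the name of complex I genes and their assembly factors, were measured, with a median log2 ratio of 0.03. Ndufa4 and its paralogue Ndufa4l2 are among them by name, though the product of Ndufa4 is now known as a complex IV subunit. Ndufa4 had 1649 counts under Pink1 siRNA and 1787 under control siRNA. Ratios above 1 were seen for 29 of the 45, where 51.1% of all measured rows had one. Of the 45 genes 0 were past 1.5-fold with a counting interval that left out 1. Of all measured rows 5.48% were past it higher and 6.64% lower. Their summed level was 4559 CPM in the Pink1 siRNA library and 4296 CPM in the control siRNA library. Of 8 genes that feed electrons to ubiquinone by other routes, the median was 0.05, and the sulphide oxidase Sqrdl was the 1 past 1.5-fold higher, where 5.48% of all measured rows were (244 counts in the Pink1 siRNA library and 158 in the control siRNA library). Of 19 other factors for complexes III, IV and V in the tables, the median was 0.07, with 0 past 1.5-fold higher (5.48% of all measured rows), 3 past 1.5-fold lower (6.64%) and, of these, 2 past 2-fold lower (2.39%). Lyrm7, a chaperone of the Rieske protein, had 13 counts in the Pink1 siRNA library and 50 in the control siRNA library, a ratio of 0.260 (widened interval 0.0332 to 1.18). Taco1, a translational activator of Cox1, had 26 counts under Pink1 siRNA and 59 under control siRNA (ratio 0.441, widened 0.114 to 1.42). These were the 2 past the rule of size. Lrpprc, which stabilises mitochondrial mRNAs, had 153 CPM in the Pink1 siRNA library and 113 CPM in the control siRNA library (ratio 1.36, widened interval 1.002 to 1.85).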

How the data were processed

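RNA of 2 cultures of 3T3-L1 cells was extracted with Trizol and made into libraries with a QuantSeq kit, per the labels' protocols. The submitters' processing notes name the mm10 build with bedtools, Bowtie2 and bcl2fastq (2.20.0.422). The annotation, strand use and the handling of reads that map to several places are not given in the sources used here. Raw counts of reads per gene symbol were deposited by the authors, as whole numbers in 1 table for each library, and the labels mention no molecular identifiers.

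Library sizes were adjusted with edgeR 4.0.16 (TMM, the trimmed mean of M values) in R 4.3.3. The log2 ratio had 0.5 added to each scaled count. Ratios carry exact conditional binomial (Clopper-Pearson) 95% intervals from SciPy 1.17.1, for counting error alone. With 0 reads, up to 3 counts, or 0.214 CPM, are possible in each library. The widened interval divides both counts by the mean excess of squared differences over binomial variance in the gene's twentieth of level (6.10 to 128 for the members). Technical spread and real differences between cultures both enter it. In the highest twentieth of level, from 260 to 102959 CPM, the excess was 128, beside 32.5 in the next twentieth. The ratio, the counting interval and the rule of size were tested on simulated counts with counting error alone. The widened interval was not tested in this way.

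No row of a member shared its symbol with another row. Positions and overlaps came from GENCODE M21, copies from BLAST 2.17.0, and promoter windows from RefSeq, the first window of each gene. In GENCODE, 14 members overlapped a gene with at least 40 counts, 6 of them at the 3′ end. Named in full were, per complex, the 3 highest and 3 lowest ratios, the 2 most abundant members, members past 1.5-fold, and isoform sets. The members, lists and rules were chosen with earlier results of these data known. Rows and genes outside these groups were not analysed here.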

Additional observations from a re-analysis of the deposited data

How the results depend on the processing

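The 2 counts of members past the rule of size were 0 higher and 0 lower under total-count, DESeq2 (1.42.0) and upper-quartile scaling, without Rn45s, with 5 added before the log, at a summed count of 200, with the counting interval ignored, with the widened interval, for subunits alone and without overlapping members. With no filter 1 member, Sdhaf3, was lower, and at 1.5-fold 2 were higher. With total counts the ratios of summed CPM were 0.945 for complex III, 1.04 for complex IV and 1.0027 for complex V. For subunit genes alone they were 1.01 for complex II and 1.04 for complex IV, and the median log2 ratio of complex III was 0.0249, on the other side of 0. The median of complex IV was 0.0290 without overlapping members and 0.0393 with total counts, beside 0.0818. Without overlapping members the summed ratio was 1.04 for complex IV and 1.05 for complex V. Of 320 single-gene values under other scalings or pseudocounts, 319 stayed within the counting interval, and Atp5g3 under total counts did not (log2 -0.09). Cyc1 and Atp5e took the other sign under total counts, which lower every log2 ratio by about 0.043. No paired analysis was possible because each group has 1 library, and for the same reason no library could be left out. Depth limits the isoforms and Sdhaf3, which had fewer than 40 counts in all.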
